A study of Mus musculus with 48 samples.

Results

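RAW264.7 macrophages that had the shared epitope peptide 65-79*SE in their medium responded to IFN-γ with large changes in their transcriptome, and this response was read from 6 of the 48 libraries of the series. Of these, 3 came from cells given the peptide together with IFN-γ (SE+IFN-γ) and 3 from cells given the peptide alone (SE). The libraries were chosen by their labels only, as those of the 2 groups that carry the replicate numbers 1 to 3 and a single letter as their name in the count table. RAW264.7 is a macrophage-like line established from a tumour that Abelson murine leukaemia virus induced in BALB/c mice. Cells of both groups were cultured for 72 h with 100 µg/ml of a synthetic peptide of 15 residues, which copies residues 65 to 79 of the HLA-DRβ chain coded by the rheumatoid arthritis risk allele DRB1*04:01, and the medium was renewed at 48 h. The SE+IFN-γ cells received 5 ng/ml of IFN-γ in addition. The peptide was therefore present on both sides of the comparison, which asks what the cytokine does in the presence of the peptide. Other groups of letter-labelled libraries, 3 in each, received PBS or IFN-γ without peptide, or the LE (DRB1*03:01) or PE (shared by alleles such as DRB1*04:02) peptide at the same dose with or without IFN-γ, and they are used here for the spread between replicates and for the comparison of responses. All libraries came from 1 cell line. For these cells the study counts 6 biological replicates from 2 independent experiments, without saying whether replicates were grown as separate cultures. Only 3 libraries per group are used here, so that every p-value measures the spread between these libraries only.

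IFN-γ is a cytokine of T cells and NK cells. It binds a receptor made of the IFNGR1 and IFNGR2 chains, the kinases JAK1 and JAK2 phosphorylate a factor of the STAT family, and its dimers bind promoter elements named GAS. Among the first genes switched on is that of the transcription factor IRF1, which acts on further promoters, many of which carry the interferon-stimulated response element, ISRE. In macrophages this programme is known for antigen presentation, for GTPases and nitric oxide that act on intracellular microbes, and for chemokines that attract T cells.

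The 6 libraries held 17.1 to 25.5 M counts, and levels are given as CPM, the count of a gene scaled to a fixed library total, which takes no account of transcript length. As a check of the labels, the mean log2(CPM + 0.1) of 16 genes known to respond to IFN-γ ran from 0.754 to 0.836 in the SE libraries and from 5.85 to 6.03 in the SE+IFN-γ libraries. Libraries of a further set, whose names begin with HLA and which carry the replicate numbers 4 to 6, went against their labels. The same mean was 0.993 to 1.37 in the HLA libraries labelled SE and 0.835 to 1.19 in those labelled SE+IFN-γ, whereas it reached 6.49 to 6.73 in those labelled LE or PE without IFN-γ. Beyond this check the HLA set is used only in the closing sections, for alternatives and for the levels of single genes. All 12 macrophage markers were detected, Adgre1, Csf1r and Cd68 among them, with a summed level of 11794 to 12388 CPM in SE and 9190 to 9540 CPM in SE+IFN-γ. The 5 epithelial markers had 0 counts in all 6 libraries. Fibroblast markers summed to 0.286 to 0.585 CPM in SE and 0.832 to 1.84 CPM in SE+IFN-γ, and T and NK cell markers to 0.145 to 0.490 CPM and 0.123 to 0.196 CPM, with Ifng itself at 0 counts. Among the B cell markers Ms4a1 and Cd79b had 0 counts in both groups, while Ighm rose from 31.7, 25.2 and 24.2 CPM to 159, 167 and 168 CPM.

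In all, 12947 genes could be tested, and 3410 of them (26.3%) were called, which means an adjusted p under 0.05 and a fold change over 1.5. IFN-γ raised 1950 genes (15.1%) and lowered 1460 (11.3%) in the presence of SE, and the median log2 fold change of all genes tested was -0.0031. In bulk libraries a change in each cell and a change in the share of cells that respond cannot be told apart. Among the genes that rose furthest were the class II gene H2-Aa, the protease inhibitor genes Serpina3f and Serpina3g, the GTPase gene Iigp1 and the chemokine gene Cxcl9. Among those that fell furthest were the fractalkine receptor gene Cx3cr1 and the protease gene Ctsk.

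The 12 highest fold changes, among genes that were called, did not overlap between the groups and had a mean of at least 10 CPM in the higher group, were those of H2-Ea-ps, Serpina3f, Serpina3g, Iigp1, Cxcl9, Ly6a, H2-Aa, Ciita, Gbp4, H2-Eb1, Gbp2b and H2-DMb1. The order rests on fitted folds, which for genes with 0 counts in SE depend on the prior count. At its bound (8.09 on the log2 scale) Ciita would stand below C1qb (8.96) and Gbp2 (8.71), which are not among the 12. H2-Ea-ps had no count in any SE library and 172, 166 and 204 CPM in the 3 SE+IFN-γ libraries, and 3 counts over the SE group would make its rise at least 3766-fold. It codes the alpha chain of the class II molecule I-E and lies at chr17:34341959-34344645, where the annotation lists it as a polymorphic pseudogene, since the C57BL/6 reference strain carries a defective copy. Serpina3f and Serpina3g, neighbouring serine protease inhibitor genes, also went from 0 counts to 111, 89.4 and 114 CPM and to 67.9, 55.2 and 62.8 CPM, at least 2188-fold and 1290.4-fold. They belong to a cluster of similar genes, so that the division of reads between them is uncertain. Ly6a, which codes the surface protein Sca-1, rose from 0.0408, 0 and 0.145 CPM to 293, 303 and 299 CPM. None of the 12 genes had an SE library that reached a level above 1.05 CPM, and none had an SE+IFN-γ library under 11.7 CPM.

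**Figure D1:**
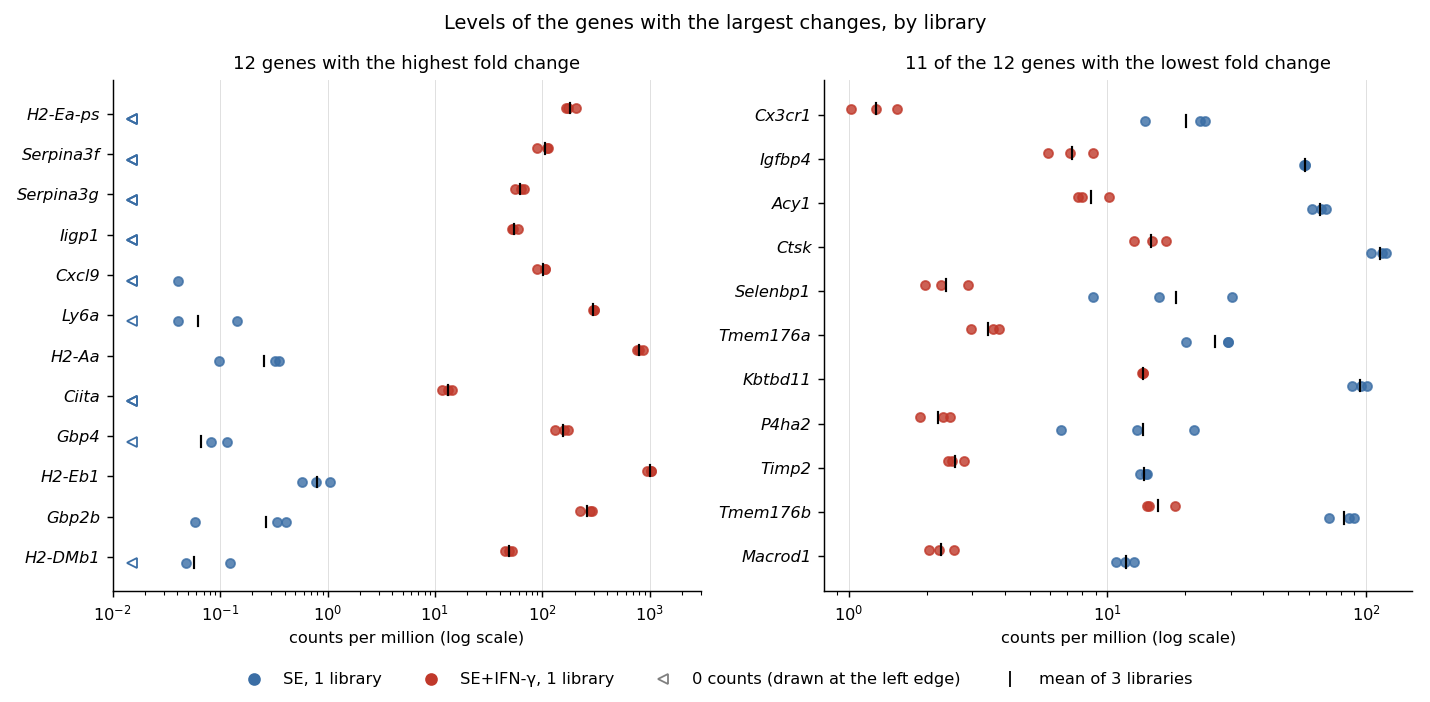
Levels in CPM (log axis) of the 12 genes with the highest and 11 of those with the lowest log2 fold change, 1 point per library, with blue for SE, red for SE+IFN-γ, an open triangle at the left edge for 0 counts and a bar for the mean of 3 libraries. The blue points of the genes that rose lie at or under 1.05 CPM, and among the 11 genes that fell the 3 blue points of P4ha2 and Selenbp1 lie further apart than those of the others.

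Genes of the pathway that receives the signal rose in part. Of the 8 genes tested for the receptor and the JAK-STAT pathway 5 rose. Jak2, a kinase bound to the receptor, stood at 28.8, 32.7 and 26.8 CPM in the SE libraries and at 53.4, 51.3 and 51.5 CPM in the SE+IFN-γ libraries (log2 fold change 0.78, standard error 0.0992, adjusted p = 9.62e-07). Stat2, which serves type I interferon signals, and Jak1 rose by log2 fold changes of 1.27 and 0.99. The receptor genes themselves did not reach the 1.5-fold minimum, with a log2 fold change of -0.46 for Ifngr1 and -0.49 for Ifngr2 (adjusted p = 0.000118 and 3.92e-06). Of 8 tested genes for inhibitors of the pathway 5 rose and 1 fell, where 15.1% of all genes tested rose and 11.3% fell. Socs1, the inhibitor of the JAK kinases, rose from 0.694, 1.46 and 1.69 CPM to 4.47, 4.42 and 4.54 CPM (log2 fold change 1.79, standard error 0.254, adjusted p = 4.41e-06), and Usp18, which restrains the type I interferon receptor, fell from 104, 99.8 and 101 CPM to 62.97, 66.3 and 69.8 CPM (log2 fold change -0.65, standard error 0.0718, adjusted p = 1.33e-07).

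Irf1 was higher in every SE+IFN-γ library than in every SE library, and it rose from 24.3, 23.8 and 23.9 CPM with SE to 95.2, 99.9 and 108 CPM with SE+IFN-γ (log2 fold change 2.03, standard error 0.0815, adjusted p = 1.92e-14). Of the 8 interferon regulatory factor genes tested, Irf1, Irf4, Irf7 and Irf8 rose and none fell. Irf8, a factor of the macrophage lineage, reached 207, 186 and 202 CPM from 97.1, 106 and 109 CPM, and Irf7, which serves the type I interferon genes, reached 364, 362 and 352 CPM from 125, 122 and 149.6 CPM. Irf4, best known from lymphocytes, rose from 6.405, 4.92 and 2.95 CPM to 17.6, 13.6 and 15.2 CPM (log2 fold change 1.65, standard error 0.2003, adjusted p = 5.49e-07).

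Promoters of 9353 of the 12947 tested genes were found in the RefSeq set for GRCm38.p6, as windows from 250 bases before the start of transcription to 50 after it. The GAS element was searched as TTCNNNGAA, which reads the same on both strands, and the ISRE as GAAANNGAAA on either strand. Counted by gene, GAS letters lay in a window of 8.67% of the genes that rose, 7.35% of those that fell and 8.22% of those not called. ISRE letters lay in a window of 8.03% of the genes that rose, 3.02% of those that fell and 3.45% of those not called. Counted by window, a unit that cannot be set against genes, GAS letters lay in 8.3% and ISRE letters in 3.44% of all 32851 windows. No test was run on these shares, and a match shows letters, not a site in use. The 3 promoters below are shown because their genes rose and they hold the letters searched, in capitals: Irf1 the GAS element on the + strand at chr11:53769764-53770063, Gbp2 the ISRE on its complementary strand at chr3:142620413-142620712 and Gbp5 2 GAS elements and, on the complementary strand, an ISRE at chr3:142496684-142496983, all 3 windows on the + strand of GRCm38.p6.
Irf1: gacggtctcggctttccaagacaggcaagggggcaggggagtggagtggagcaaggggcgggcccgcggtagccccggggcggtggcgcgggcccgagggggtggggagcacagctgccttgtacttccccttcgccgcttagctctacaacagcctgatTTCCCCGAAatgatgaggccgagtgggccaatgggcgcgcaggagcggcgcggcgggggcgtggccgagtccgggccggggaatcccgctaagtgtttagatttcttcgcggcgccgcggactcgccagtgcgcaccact
Gbp2: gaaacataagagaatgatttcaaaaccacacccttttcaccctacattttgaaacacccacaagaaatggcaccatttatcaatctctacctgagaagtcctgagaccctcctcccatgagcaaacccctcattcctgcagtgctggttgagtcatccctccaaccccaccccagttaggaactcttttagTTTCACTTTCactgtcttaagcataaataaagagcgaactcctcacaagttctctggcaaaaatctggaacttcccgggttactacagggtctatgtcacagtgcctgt
Gbp5: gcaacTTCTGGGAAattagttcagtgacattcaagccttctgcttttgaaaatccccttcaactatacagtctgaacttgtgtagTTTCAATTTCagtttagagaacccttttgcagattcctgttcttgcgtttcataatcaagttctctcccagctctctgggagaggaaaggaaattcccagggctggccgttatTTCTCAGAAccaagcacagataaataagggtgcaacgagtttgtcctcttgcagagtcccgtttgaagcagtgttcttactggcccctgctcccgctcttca

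All 11 genes for guanylate-binding proteins, the large GTPases that coat pathogen vacuoles, rose with IFN-γ in the presence of SE, as did all 8 for immunity-related GTPases. Among all genes tested 15.1% rose. The median log2 fold change of the guanylate-binding protein list was 7.71, or 6.46 with the genes that had 3 or fewer counts in SE set at their bound or ratio, and that of the immunity-related GTPase list was 4.38. Gbp2 stood at 0.5303, 1.05 and 0.531 CPM in the SE libraries and at 318, 264 and 302 CPM in the SE+IFN-γ libraries (log2 fold change 8.71, adjusted p = 3.5e-21). Its promoter, printed above, holds its ISRE letters 59 bases before the start. Gbp5 rose from 4 counts over the 3 SE libraries to 17.002, 15.4 and 17.3 CPM (log2 fold change 7.85, adjusted p = 5.42e-12), and its GAS letters begin 245 and 52 bases and its ISRE letters 165 bases before the start. All 5 of the guanylate-binding protein genes that had a promoter in the set held the ISRE letters, and 2 held the GAS letters.

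The rise varied among the GTPase genes. Gbp8 was the member of its list with the smallest rise and was already at 28.8, 26.4 and 31.5 CPM with SE, and it reached 95.2, 97.3 and 96.02 CPM (log2 fold change 1.69, standard error 0.0988, adjusted p = 9.65e-12). By contrast Gbp4 went from 0.0816, 0.117 and 0 CPM to 159, 130.1 and 173 CPM, and Gbp6 and Gbp10 from 0 counts to at least 24.3-fold and 88.2-fold higher levels. The annotated spans of Gbp4 (chr5:105115767-105139586) and Gbp8 (chr5:105014150-105139540) overlap on the same strand, so that the division of reads in the shared stretch is uncertain. Of the 11 genes, 5 lie on chromosome 3 and 6 on chromosome 5. In the other family Irgm1, which governs how these GTPases load onto membranes, was at 61.7, 59.2 and 59.2 CPM with SE and 156, 149 and 161 CPM with SE+IFN-γ (log2 fold change 1.33, standard error 0.0738, adjusted p = 4.29e-12), while Iigp1 had 0 counts with SE and 51.7, 53.2 and 59.8 CPM with SE+IFN-γ, at least 1143-fold more. Igtp went from 9.67, 8.95 and 7.92 CPM to 78.5, 73.8 and 80.98 CPM. Several of these genes lie in clusters of close copies, such as Tgtp1 and Tgtp2, and since only reads with a unique alignment were counted, their separate levels are uncertain.

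The class II pathway, which presents peptides to CD4 T cells, was at or near 0 counts with SE for most of its genes and rose for all 10 tested. Ciita, the coactivator that governs these genes (at chr16:10480059-10528418), had 0 counts in the 3 SE libraries and 14.5, 11.7 and 13.2 CPM in the SE+IFN-γ libraries, at least 273-fold more. H2-Aa went from 0.326, 0.351 and 0.0966 CPM to 757, 787 and 859 CPM, and H2-Eb1 from 0.775, 1.05 and 0.5796 CPM to 934, 1031 and 1028 CPM, log2 fold changes of 11.53 and 10.26. The invariant chain gene Cd74 was expressed without IFN-γ, at 1399, 1445 and 1624 CPM, and it rose to 4212, 4471 and 4567 CPM (log2 fold change 1.53, standard error 0.0972, adjusted p = 3.82e-11). The DM genes for the peptide exchange factor rose too, H2-DMb1 by a log2 fold change of 9.42 and H2-DMa by 2.59.

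The promoters of H2-Aa and H2-Eb1 are shown because class II promoters are known for a Y box, the binding site of the factor NF-Y. The Y box was searched as CTGATTGG on both strands and lay in 4.1% of all windows. Counted by gene, a unit that cannot be set against windows, it lay in 7.17% of the genes that rose, 7.63% of those that fell and 6.63% of those not called. Of the 7 class II genes with a promoter in the set 3 held it. It begins 51 bases before the start in H2-Aa (chr17:34287774-34288073, − strand) and 62 bases before the start in H2-Eb1 (chr17:34305617-34305916, + strand), and the capitals mark it.
H2-Aa: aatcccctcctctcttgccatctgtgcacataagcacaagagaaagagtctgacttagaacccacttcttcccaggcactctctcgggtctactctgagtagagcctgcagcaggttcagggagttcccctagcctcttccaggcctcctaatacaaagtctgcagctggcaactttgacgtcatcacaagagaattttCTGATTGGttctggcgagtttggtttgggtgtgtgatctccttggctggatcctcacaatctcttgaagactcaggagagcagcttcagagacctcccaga
H2-Eb1: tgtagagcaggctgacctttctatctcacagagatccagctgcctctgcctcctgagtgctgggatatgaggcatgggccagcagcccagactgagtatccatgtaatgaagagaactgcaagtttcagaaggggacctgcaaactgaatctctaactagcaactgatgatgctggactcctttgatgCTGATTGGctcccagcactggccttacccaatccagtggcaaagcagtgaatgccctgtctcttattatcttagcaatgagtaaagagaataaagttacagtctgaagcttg

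Class I genes were expressed without IFN-γ and most rose further. Of the 17 genes tested for class I molecules, peptide loading and the immunoproteasome 15 rose, with a median log2 fold change of 1.36. The remaining 2, Tapbp and H2-M3, had log2 fold changes of 0.39 and 0.55, under the 1.5-fold minimum, and H2-M3 passed it without SE replicate 3 (0.64). H2-K1 went from 727, 723 and 859.9 CPM to 1945, 2055 and 2015 CPM (log2 fold change 1.34, standard error 0.0779, adjusted p = 8.95e-12), and Nlrc5, the coactivator of class I genes, from 32.8, 36.6 and 42.02 CPM to 142, 134 and 123 CPM (log2 fold change 1.80, standard error 0.0979, adjusted p = 3.07e-12). The peptide transporter gene Tap1 rose from 58.8, 51.6 and 60.4 CPM to 317, 322 and 319 CPM. All 3 catalytic subunits of the immunoproteasome rose, Psmb8, Psmb9 and Psmb10, by log2 fold changes of 1.38, 2.57 and 1.28. The subunits that they replace, Psmb5, Psmb6 and Psmb7, had -0.31, -0.0048 and 0.40, and none of the 14 constitutive proteasome genes tested was called.

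Chemokine genes rose as a group, 14 of 15 tested, with a median log2 fold change of 3.47 and Ccl9 (0.26) as the gene that was not called. The CXCR3 ligands attract activated T cells and were close to 0 with SE. Cxcl9 had 1 count over the 3 SE libraries and 106, 89.3 and 106 CPM in the SE+IFN-γ libraries, a ratio of 6278 with an exact 95% interval from 1126 to 247982 that covers counting error only. Cxcl11 had 3 counts over the SE libraries and reached 13.3, 11.6 and 14.3 CPM, a ratio of 272 (exact 95% interval 92.9 to 1323). Cxcl10 rose from 0.5303, 0.819 and 0.483 CPM to 10.9, 8.54 and 12.2 CPM (log2 fold change 4.09, standard error 0.265, adjusted p = 4.77e-11). Ccl5, which attracts T cells and monocytes, went from 2.98, 2.93 and 4.78 CPM to 89.7, 79.3 and 74.6 CPM (log2 fold change 4.46, standard error 0.1602, adjusted p = 3.24e-15). Cxcl16, which is made as a membrane protein, reached 234, 208 and 229 CPM from 40.3, 43.7 and 33.9 CPM, and Ccl3, which attracts monocytes, reached 1099, 987 and 1106 CPM from 349, 395 and 437 CPM. Cxcl1, Cxcl3 and Cx3cl1 had at most 1 count over the 6 libraries and were not tested. The groups did not overlap for Cxcl9, Cxcl10, Cxcl11, Cxcl16, Ccl3 or Ccl5.

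Receptors for chemoattractants moved in opposite directions. Cx3cr1, the receptor of fractalkine, fell from 13.9, 23.9 and 22.7 CPM to 1.27, 1.53 and 1.02 CPM (log2 fold change -4.02, standard error 0.326, adjusted p = 1.61e-09), and Gpr183, the receptor of oxidised cholesterol derivatives, from 37.98, 37.3 and 37.5 CPM to 8.07, 7.31 and 8.23 CPM (log2 fold change -2.30, standard error 0.0787, adjusted p = 1.68e-15). These were the 2 of 10 tested genes that fell, and 7 rose, beside 11.3% and 15.1% of all genes tested. Fpr2, a receptor of formylated peptides, had 2 counts over the SE libraries and 5.65, 4.47 and 6.43 CPM with SE+IFN-γ, a ratio of 173 (exact 95% interval 47.6 to 1433). Ccrl2, which binds chemerin, rose from 11.01, 7.31 and 9.27 CPM to 74.2, 62.3 and 71.4 CPM, and Cxcr4, the receptor of CXCL12, from 7.996, 9.83 and 6.09 CPM to 28.96, 23.9 and 23.6 CPM.

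Genes for nitric oxide and related metabolism rose, 6 of 8 tested. Nos2, the inducible nitric oxide synthase (at chr11:78920787-78960254), stood at 13.99, 22.996 and 57.8 CPM with SE and at 432, 376 and 427 CPM with SE+IFN-γ (log2 fold change 3.66, standard error 0.324, adjusted p = 5.93e-09). Its SE libraries lay further apart, for their level, than its SE+IFN-γ libraries, and all 3 were below them. Acod1, which makes itaconate, went from 24.5, 31.7 and 53.99 CPM to 412, 305 and 394 CPM, and Ass1, which regenerates arginine, from 13.95, 17.6 and 19.2 CPM to 138, 129 and 136 CPM. Slc11a1, a metal transporter of the phagosome, rose from 168, 169 and 164 CPM to 551, 539 and 516 CPM. Arg2, which breaks arginine down, was the gene that fell (log2 fold change -1.38). Arg1 and Ido1, enzymes that use up arginine and tryptophan, were not tested, with at most 2 counts in any library. In the phagocyte NADPH oxidase 1 of 6 genes rose and 1 fell, beside 15.1% and 11.3% of all genes tested. Cybb, its catalytic subunit, went from 221, 245 and 259.9 CPM to 861, 733 and 873 CPM (log2 fold change 1.72, standard error 0.0923, adjusted p = 2.44e-12), and Ncf4, a cytosolic subunit, from 344, 347 and 358 CPM to 221, 224 and 217 CPM (log2 fold change -0.71, standard error 0.0572, adjusted p = 1.56e-09).

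Of 16 genes for Fc receptors and complement 11 rose and 1 fell, beside 15.1% and 11.3% of all genes tested. The 3 chains of C1q started near 0 counts, and C1qb reached 44.4, 45.1 and 42.2 CPM from 0.0816, 0.176 and 0 CPM (log2 fold change 8.96, adjusted p = 3.23e-15). C3, the central complement component, rose from 15.6, 18.7 and 18.7 CPM to 256, 218 and 228 CPM (log2 fold change 3.69, standard error 0.108, adjusted p = 1.32e-16). The high-affinity IgG receptor Fcgr1 rose by a log2 fold change of 1.21 and Fcgr4 by 1.197, whereas Fcgr3 fell by 0.71 on the log2 scale. In the list of costimulatory and checkpoint genes, which also holds Ly6a, 9 of 13 rose and 1 fell. Cd86 went from 4.49, 5.09 and 4.97 CPM to 60.02, 56.1 and 61.8 CPM and Cd80, which binds the same receptors, from 9.18, 10.6 and 8.597 CPM down to 3.196, 3.33 and 3.21 CPM (log2 fold change -1.58, standard error 0.134, adjusted p = 3.13e-09). Cd274, which codes the checkpoint ligand PD-L1, rose from 20.6, 21.6 and 21.5 CPM to 189.8, 160.2 and 163 CPM, and Cd40 from 19.8, 21.8 and 25.7 CPM to 73.7, 80.6 and 78.3 CPM.

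Cytokine and NF-κB genes were mixed, with 9 of 21 higher and 4 lower, beside 15.1% and 11.3% of all genes tested. Tnf rose from 30.7, 43.2 and 41.9 CPM to 89.4, 84.2 and 85.6 CPM (log2 fold change 1.13, standard error 0.153, adjusted p = 2.48e-06), and Nfkbiz, a nuclear member of the IκB family, from 3.39, 5.03 and 4.59 CPM to 29.5, 24.8 and 32.6 CPM (log2 fold change 2.72, standard error 0.1799, adjusted p = 6.84e-11). The inhibitor genes Nfkbia and Nfkbie fell, by 0.65 and 1.27 on the log2 scale, and so did the adhesion gene Icam1, from 116, 123 and 124 CPM to 67.3, 71.4 and 71.97 CPM. Without SE replicate 3 the change of Nfkbia was -0.58 and just under the 1.5-fold minimum. Il6 and Il27 rose from low levels, to 2.499, 3.02 and 2.98 CPM and 7.37, 5.61 and 6.58 CPM. Among 16 cell death genes 8 rose and 1 fell, beside the same shares of all genes. Zbp1, a sensor that can start necroptosis, rose from 2.28, 1.99 and 4.202 CPM to 85.9, 77.0004 and 86.3 CPM (log2 fold change 4.82, standard error 0.154, adjusted p = 5.17e-16), Casp1 and Casp4 by log2 fold changes of 1.26 and 1.39, and Gsdmd, their substrate, had -0.0027 and was not called. Mcl1, which protects from apoptosis, was the gene that fell, from 437, 477 and 456 CPM to 258, 245 and 269.7 CPM.

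Genes best known as targets of type I interferon split, with 14 of 26 higher, 3 lower and 9 not called. Mx1 rose from 0.408, 0.176 and 0.0966 CPM to 5.24, 6.31 and 4.66 CPM and Rsad2 from 3.75, 3.39 and 4.202 CPM to 47.5, 36.7 and 44.8 CPM (log2 fold change 3.46, standard error 0.161, adjusted p = 2.53e-13). Oas2, Ddx58 and Eif2ak2, which sense viral RNA, were the 3 that fell, by 0.79, 0.79 and 0.63 on the log2 scale, and the SE and SE+IFN-γ libraries overlapped for Oas1a (log2 fold change 0.01). In the list of DNA sensors and inflammasome genes 7 of 11 rose, among them Ifi205 and Ifi204, and none fell. Of 15 Toll-like receptor and adaptor genes 3 rose and 2 fell, beside 15.1% and 11.3% of all genes tested. Tlr9, the receptor of CpG DNA, went from 5.79, 5.79 and 7.39 CPM to 52.2, 44.2 and 46.3 CPM (log2 fold change 2.87, standard error 0.124, adjusted p = 6.73e-14), and Tlr2, the receptor of lipopeptides, from 141, 142 and 127 CPM down to 66.4, 74.6 and 77.96 CPM (log2 fold change -0.94, standard error 0.0599, adjusted p = 3.68e-11). Of 7 Schlafen genes 2 rose, 1 fell and 4 were not called, where 15.1% and 11.3% of all genes rose and fell.

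**Figure D2:**
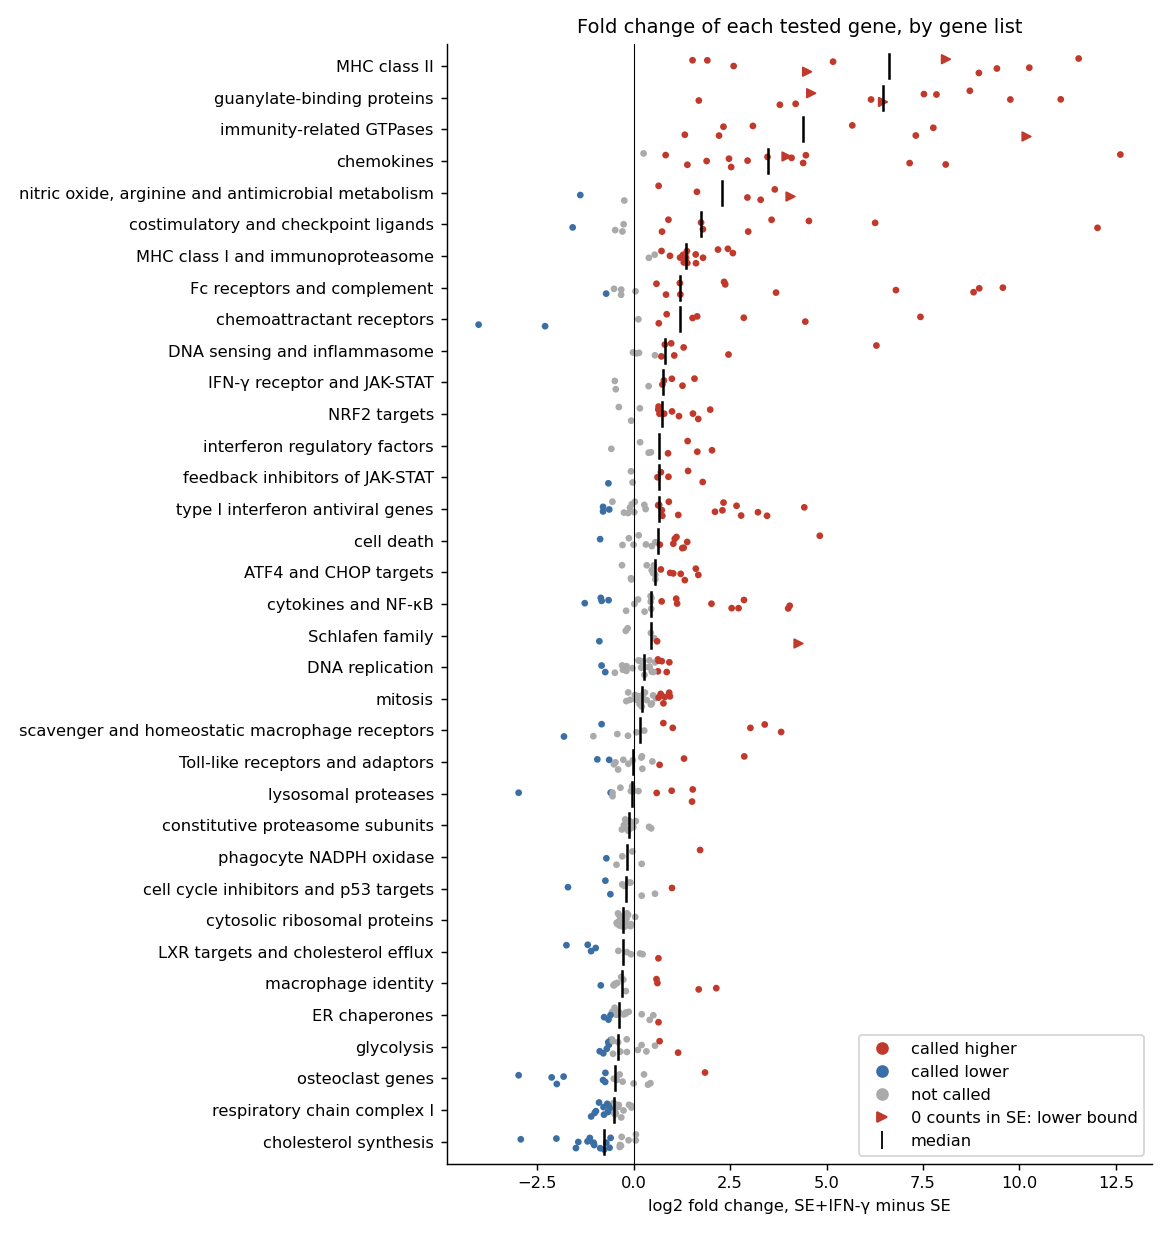
Log2 fold change (SE+IFN-γ minus SE) of each tested gene in 35 lists, with red for genes called higher, blue for genes called lower, grey for genes not called, a triangle for a lower bound and a black bar for the median, lists ordered by that median. MHC class II stands at the top with a median of 6.63 and cholesterol synthesis at the bottom with -0.77.

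Of 12 scavenger and homeostatic receptor genes 5 rose and 2 fell. Cd36, which takes up oxidised lipoproteins, rose from 103, 104 and 75.5 CPM to 1070.3, 906 and 1084 CPM (log2 fold change 3.40, standard error 0.134, adjusted p = 1.57e-14), and Clec7a, the beta-glucan receptor, from 9.18, 9.65 and 6.71 CPM to 75.01, 66.01 and 72.7 CPM. Trem2, a receptor of lipids, fell from 525, 479 and 482 CPM to 143, 153 and 141 CPM (log2 fold change -1.81, standard error 0.0736, adjusted p = 2.42e-14). Adgre1, which codes the F4/80 marker, rose from 76.7, 77.8 and 71.7 CPM to 269, 228 and 251 CPM, and Csf1r, the receptor of the growth factor CSF1, was lower at 758, 698 and 728 CPM against 952, 909.8 and 984 CPM without being called (log2 fold change -0.42). RAW264.7 cells can form osteoclasts, and of 16 osteoclast genes 7 fell and 1 rose. Ctsk, the main protease of osteoclasts, fell from 119, 105 and 115 CPM to 12.6, 16.8 and 14.8 CPM (log2 fold change -2.98, standard error 0.0908, adjusted p = 2.4e-16), Acp5 from 84.3, 69.9 and 90.9 CPM to 20.2, 21.5 and 21.9 CPM, and the osteoclast transcription factor gene Nfatc1 by 0.73 on the log2 scale. Ocstamp, a cell fusion gene, was the one that rose, to 8.15, 6.96 and 7.796 CPM from 1.88, 1.81 and 2.46 CPM. The lysosomal proteases had 4 of 13 higher and 2 lower, beside 15.1% and 11.3% of all genes tested. Ctsb, which codes cathepsin B, overlapped between the groups (log2 fold change -0.04).

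By the rule that chose the 12 genes above, the lowest fold changes included those of Igfbp4, Acy1, Selenbp1, Tmem176a, Tmem176b, Kbtbd11, P4ha2, Timp2, Macrod1, Cx3cr1 (at chr9:119901616-120069879) and Ctsk. Igfbp4, which binds insulin-like growth factors, went from 58.3, 58.2 and 57.5 CPM to 8.81, 5.87 and 7.17 CPM, and Acy1, which releases amino acids from their acetyl forms, from 70.1, 61.8 and 66.8 CPM to 7.99, 10.2 and 7.72 CPM. For P4ha2, a subunit of the enzyme that hydroxylates collagen prolines, the SE libraries stood apart from each other at 6.61, 12.99 and 21.6 CPM, and the SE+IFN-γ libraries were at 1.88, 2.45 and 2.31 CPM (log2 fold change -2.67, standard error 0.502, adjusted p = 0.000118). Selenbp1 showed the same kind of spread, with 8.81, 15.8 and 30.4 CPM and 1.97, 2.28 and 2.899 CPM.

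Cholesterol synthesis genes fell as a group. Of 21 genes tested 14 fell and none rose, with a median log2 fold change of -0.77, where 11.3% of all genes fell. Fdps, which makes farnesyl diphosphate, fell from 25.7, 26.8 and 31.9 CPM to 10.1, 13.5 and 8.66 CPM (log2 fold change -1.44, standard error 0.147, adjusted p = 4.94e-08). Msmo1, which removes methyl groups from sterols, fell from 97.3, 93.2 and 82.9 CPM to 38.8, 42.05 and 41.9 CPM (log2 fold change -1.20, standard error 0.0663, adjusted p = 3.99e-12), and Hmgcs1, an early enzyme, from 43.5, 46.9 and 39.6 CPM to 24.5, 22.6 and 26.1 CPM (log2 fold change -0.87, standard error 0.0786, adjusted p = 8.44e-09). Genes of this pathway are known for the sterol regulatory element, searched here as TCACNCCAC on both strands, which lay in 1.24% of all windows. Counted by gene, it lay in a window of 2.45% of the genes that fell, 1.51% of those that rose and 1.19% of those not called. Hmgcs1 was the 1 of 15 pathway genes with a promoter that held it, 137 bases before the start, and its window (chr13:119690101-119690400, + strand) is shown with the element in capitals.
Hmgcs1: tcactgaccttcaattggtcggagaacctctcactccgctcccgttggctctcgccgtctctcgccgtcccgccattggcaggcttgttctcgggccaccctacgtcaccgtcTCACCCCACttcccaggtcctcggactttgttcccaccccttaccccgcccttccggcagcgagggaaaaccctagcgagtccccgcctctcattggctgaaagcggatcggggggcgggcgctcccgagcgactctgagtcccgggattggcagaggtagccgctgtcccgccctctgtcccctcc

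The desaturase genes Scd1 and Scd2, which make oleic acid, were among the 4 of 10 LXR target and efflux genes that fell, Scd2 from 342, 461 and 485 CPM to 118, 133 and 145 CPM (log2 fold change -1.74, standard error 0.143, adjusted p = 1.89e-09). The cholesterol exporter genes Abca1 and Abcg1 had log2 fold changes of 0.17 and 0.23 and were not called. In glycolysis 6 of 19 genes fell and 2 rose, beside 11.3% and 15.1% of all genes tested. Ldha stood at 2094, 2528 and 3015 CPM with SE and 1438, 1394 and 1444 CPM with SE+IFN-γ (log2 fold change -0.88, standard error 0.1295, adjusted p = 6.92e-06), and the 3 SE libraries lay further apart than the 3 with IFN-γ. Hif1a, the oxygen-regulated factor, was one of the 2 that rose, from 32.4, 40.5 and 23.04 CPM to 73.9, 64.2 and 79.8 CPM (log2 fold change 1.15, standard error 0.219, adjusted p = 0.000135).

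All 26 complex I genes had a log2 fold change under 0, with a median of -0.52, and 10 of them fell, beside 11.3% of all genes tested. Ndufb3 went from 77.8, 79.3 and 74.5 CPM to 37.2, 36.3 and 37.4 CPM (log2 fold change -1.10, standard error 0.0853, adjusted p = 8.01e-10). None of the 33 tested ribosomal protein genes was called, and their median was -0.27. These genes have short transcripts, and short transcripts as a class took a smaller share of the counts in SE+IFN-γ than in SE. Transcripts under 1500 bases took 17.9% to 18.4% of the counts in the SE libraries and 15.7% to 16.4% in the SE+IFN-γ libraries. Without peptide they took 15.6% to 16.4% with PBS and 14.6% to 15.8% with IFN-γ, so that the SE libraries stood above all of these. The mitochondrial genome took 1.36% to 1.59% in SE and 0.855% to 1.01% in SE+IFN-γ. The log2 fold change correlated with transcript length across 12781 genes (Spearman rho 0.185, a description, since genes are not independent replicates). With a smooth trend on length and GC content subtracted the median of complex I was -0.38 and that of the ribosomal genes -0.11. The part of library preparation in these values was not tested.

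Of 12 NRF2 targets 9 rose and none fell, with Hmox1, which degrades heme, going from 454, 562 and 594 CPM to 2289, 2165 and 2108 CPM (log2 fold change 1.98, standard error 0.09405, adjusted p = 3.24e-13) and Prdx1, a peroxidase, from 957, 912 and 866 CPM to 2697, 2709 and 2759.9 CPM. Of 16 ATF4 and CHOP targets 7 rose and none fell, with Atf3 at 151, 175 and 219 CPM and 647, 552 and 596 CPM (log2 fold change 1.68, standard error 0.109, adjusted p = 5.37e-11) and Slc7a11, the cystine transporter, at 59.4, 71.2 and 58.5 CPM and 209, 179 and 205 CPM. Among 17 ER chaperones 1 rose, 3 fell and 13 were not called, where 15.1% of all genes rose and 11.3% fell. Hspa5, which codes BiP, was at 7139.6, 7129 and 8054 CPM and 10569, 11025 and 11134 CPM and did not reach the 1.5-fold minimum (log2 fold change 0.51), while Dnajc3 fell from 525, 537 and 528 CPM to 302, 332 and 328 CPM (log2 fold change -0.77, standard error 0.0637, adjusted p = 2.31e-09). Calr and Lrp1, which code the calreticulin and LRP1 proteins studied as the receptor complex of the peptide, had log2 fold changes of -0.50 and -0.58, adjusted p = 1.14e-06 and 4.45e-05, and did not reach the minimum either. Lrp1 passed it without SE replicate 1 (-0.61), without SE replicate 3 (-0.63) and without SE+IFN-γ replicate 1 (-0.65).

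Cell cycle genes moved little. Of 28 DNA replication genes 6 rose and 2 fell, and of 28 mitosis genes 6 rose and none fell, with medians of 0.26 and 0.22. Among all genes tested 15.1% rose and 11.3% fell. Bub1, a kinase of the spindle checkpoint, rose from 16.8, 16.3 and 14.5 CPM to 29.7, 25.7 and 37.4 CPM (log2 fold change 0.92, standard error 0.124, adjusted p = 2.25e-06), and the proliferation marker Mki67 was not called (log2 fold change 0.34). Of 10 cell cycle inhibitors and p53 targets 1 rose and 3 fell. Mdm2, which degrades p53, rose by a log2 fold change of 0.99, and Cdkn1a, the inhibitor p21, overlapped between the groups (log2 fold change -0.24).

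The response to IFN-γ with SE was next set beside the responses without peptide, with LE and with PE, each taken from its own 6 libraries in 1 model of the 24 letter-labelled libraries. In this model 13096 genes were tested, and 3406 (26.0%) were called for the response with SE, 2417 (18.5%) without peptide, 4547 (34.7%) with LE and 2710 (20.7%) with PE. No library is shared between the response with SE and the other 3, but the 3 differences described next share the SE and SE+IFN-γ libraries with each other. Of the genes called with SE, 1667 were also called without peptide, 48.9% of the SE list and 69.0% of the other, and 1652 of them moved the same way. Across genes the 2 responses had Pearson's r of 0.829 and Spearman's rho of 0.668, as a description with no test. With LE 2905 were shared, 85.3% of the SE list and 63.9% of the other, all in the same direction. With PE the shared genes were 1928, 56.6% and 71.1% of the lists, with 8 in opposite directions. A gene called in a single response need not differ between the responses. Of the 1739 genes called with SE but not without peptide, the difference itself was called for 507. It was called for 6 of the 501 not called with LE and for 252 of the 1478 not called with PE.

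**Figure D3:**
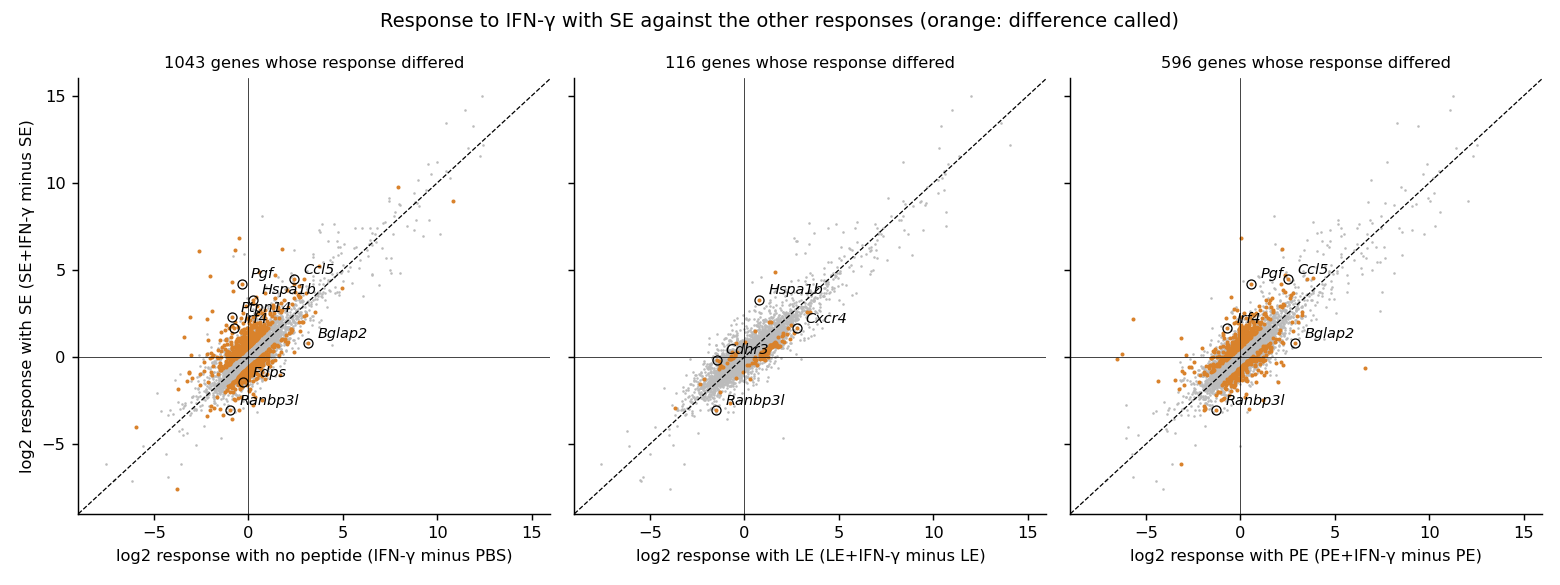
Log2 response to IFN-γ with SE (vertical axes) against the response without peptide, with LE and with PE (horizontal axes), 1 point per gene of the 13096 tested, with genes whose difference was called in orange and equality as the broken line. Orange points number 1043, 116 and 596, and Pgf, Ccl5 and Irf4 lie above the line in the panels without peptide and with PE.

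Against the response without peptide, the difference was called for 1043 genes (7.96%), with 665 (5.08%) higher with SE and 378 (2.89%) lower. Pgf, which codes placental growth factor, had the highest difference of the genes named by rule. It was at 1.05 ± 0.686 CPM with PBS and 0.817 ± 0.215 CPM with IFN-γ (means ± SD, n = 3), and at 0.927 ± 0.807 CPM with SE and 18.2 ± 2.499 CPM with SE+IFN-γ (difference of log2 responses 4.55, standard error 0.607, adjusted p = 1.24e-05). Ptpn14, a tyrosine phosphatase gene, was at 2.33 ± 0.322 CPM with IFN-γ and at 20.8 ± 1.49 CPM with SE+IFN-γ (difference of log2 responses 3.18, standard error 0.342, adjusted p = 1.01e-06). Irf4 moved in opposite directions, from 8.04 ± 1.67 CPM to 4.75 ± 0.608 CPM without peptide and from 4.76 ± 1.73 CPM to 15.5 ± 2.01 CPM with SE (difference of log2 responses 2.40, standard error 0.2905, adjusted p = 4.38e-06). Hspa1b, which codes an inducible HSP70, Tnfrsf9, which codes the receptor 4-1BB, and the kinase gene Dmpk were the other 3 of the 6 highest, with differences of 3.05, 2.29 and 2.27. Tnfrsf9 fell in both settings, from 19.6 ± 7.82 to 2.22 ± 0.758 CPM without peptide and from 20.1 ± 6.25 to 11.4 ± 0.382 CPM with SE, so that its difference is a smaller fall. Without SE replicate 3 its fall with SE was no longer called.

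Genes with a lower response with SE included H2-Ab1, Chst1, Avil, Pi16, Ranbp3l and Bglap2. H2-Ab1, a class II gene, rose from 0.353 ± 0.133 CPM to 656 ± 108 CPM without peptide and from 0.941 ± 0.0551 CPM to 484 ± 30.3 CPM with SE (difference of log2 responses -1.88, standard error 0.425, adjusted p = 0.00286). Its levels without IFN-γ rest on few counts, and on the log2 scale they lay further apart than its levels with IFN-γ. Avil, which codes the actin-binding protein advillin, went from 219 ± 24.1 to 303 ± 94.8 CPM without peptide and from 367 ± 3.24 to 164 ± 20.4 CPM with SE (difference of log2 responses -1.68, standard error 0.221, adjusted p = 1.18e-05). Ranbp3l fell from 12.96 ± 0.459 to 6.57 ± 0.528 CPM without peptide and from 9.31 ± 2.61 to 1.15 ± 0.0556 CPM with SE (difference of log2 responses -2.08, standard error 0.279, adjusted p = 1.31e-05). Bglap2 is one of several near-identical osteocalcin genes, so that its level is uncertain. Irf1 reached 160.3 ± 25.3 CPM with IFN-γ alone and 101 ± 6.22 CPM with SE+IFN-γ, from 22.7 ± 1.199 and 23.98 ± 0.253 CPM (difference of log2 responses -0.80, standard error 0.132, adjusted p = 0.000152).

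By lists, 8 of 15 chemokine genes had a higher response with SE than without peptide and none a lower one. Among all genes tested 5.08% had a higher response and 2.89% a lower one. Ccl5 reached 8.17 ± 0.641 CPM with IFN-γ alone and 81.2 ± 7.73 CPM with SE+IFN-γ (difference of log2 responses 2.04, standard error 0.276, adjusted p = 1.52e-05), and Cxcl16 87.6 ± 13.8 CPM and 224 ± 13.9 CPM (difference of log2 responses 1.65, standard error 0.154, adjusted p = 1.65e-07). Of the 21 cholesterol synthesis genes 7 had a lower response, and none a higher one. Fdps went from 27.3 ± 3.99 to 22.5 ± 1.82 CPM without peptide and from 28.1 ± 3.29 to 10.7 ± 2.48 CPM with SE (difference of log2 responses -1.17, standard error 0.208, adjusted p = 0.000315). Of the 17 ER chaperones 11 had a lower response and none a higher one, with a median log2 response of 0.32 without peptide and -0.37 with SE. The trend of the response with transcript length also differed between settings, with a Spearman rho across genes of -0.0397 without peptide, 0.0878 with PE, 0.185 with SE and 0.231 with LE, and its part in these differences was not tested. Hsp90b1, the chaperone GRP94, went from 3962 ± 75.7 to 5015 ± 261 CPM without peptide and from 4090.3 ± 163 to 3014 ± 105 CPM with SE (difference of log2 responses -0.83, standard error 0.0978, adjusted p = 3.28e-06). Of 17 class I and immunoproteasome genes 5 had a lower response with SE. Of 28 DNA replication genes 7 had a higher one, and in the guanylate-binding protein list 1 of 11, Gbp2b, had a higher one.

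**Figure D4:**
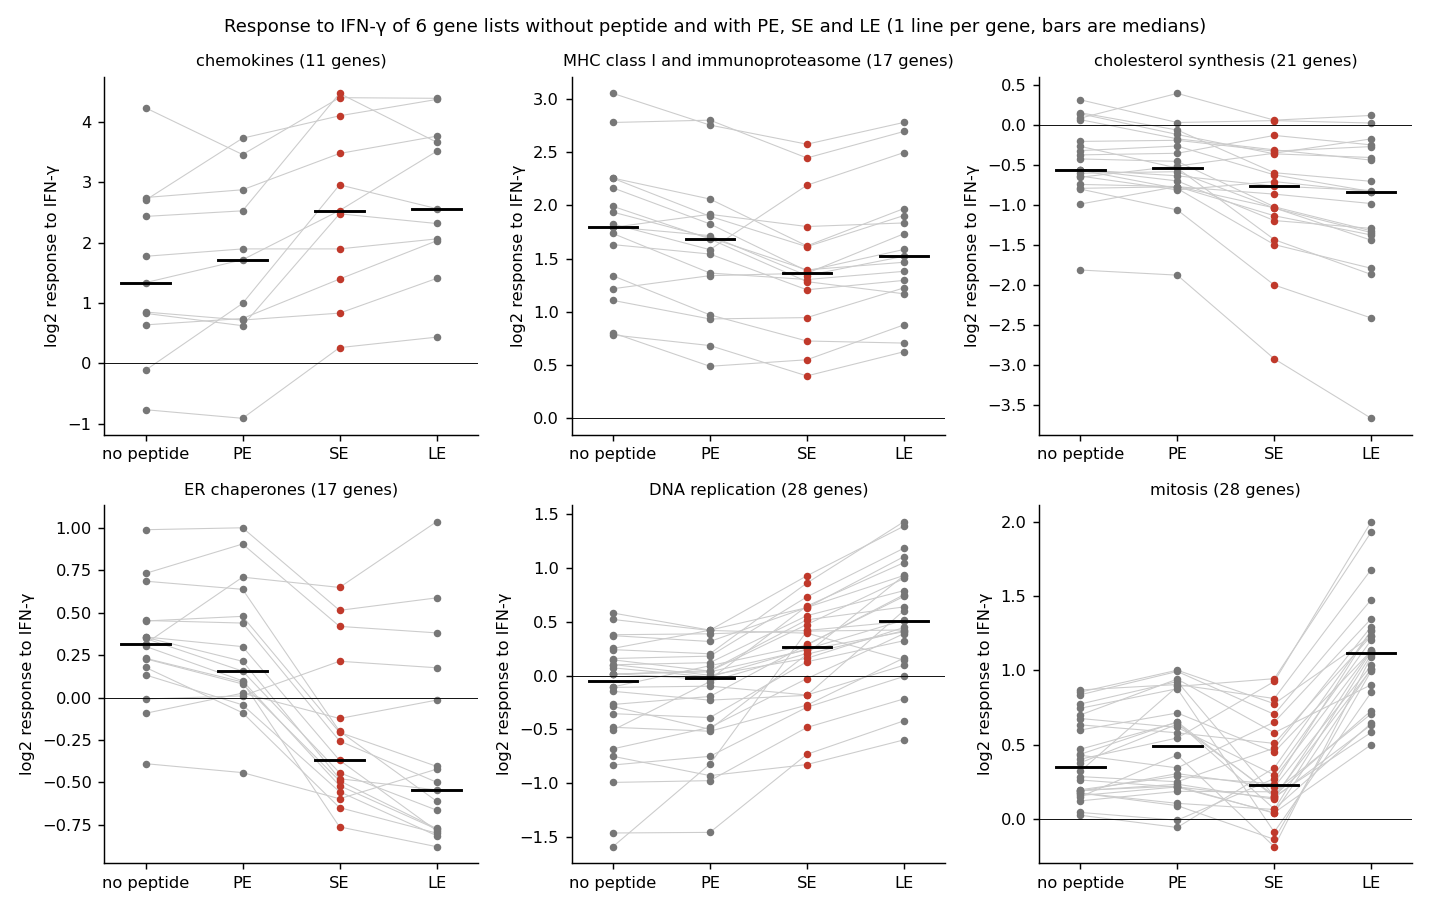
Log2 response to IFN-γ of the genes of 6 lists without peptide and with PE, SE and LE, 1 grey line per gene, red points for SE and black bars for medians, leaving out genes with 3 or fewer counts in any group. For the ER chaperones the median was 0.32 without peptide, 0.16 with PE, -0.37 with SE and -0.54 with LE.

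Against the response with LE 116 genes (0.886%) were called, 29 (0.221%) higher with SE and 87 (0.664%) lower, while 2328 had an unadjusted p under 0.05. This count moved by over 1.5 times when single libraries were left out, to 63 without LE replicate 2, 49 without LE replicate 3, 35 without LE+IFN-γ replicate 3, 56 without SE replicate 1, 77 without SE+IFN-γ replicate 1 and 38 without SE+IFN-γ replicate 2. Mitosis genes made up 16 of the 87, out of 28 tested, and their median response was 0.23 with SE and 1.12 with LE. Bub1 reached 30.9 ± 5.95 CPM with SE+IFN-γ and 77.3 ± 5.32 CPM with LE+IFN-γ (difference of log2 responses -1.07, standard error 0.209, adjusted p = 0.0101), Aspm, a spindle pole gene, 6.605 ± 0.4998 and 17.9 ± 2.86 CPM (difference of log2 responses -1.28, standard error 0.227, adjusted p = 0.00614), and Prr11 17.8 ± 1.56 and 54.8 ± 8.32 CPM. Ddias, Trim59 and Plau, which codes urokinase, were also among the 6 lowest, with differences of -1.27, -1.26 and -1.22. The 6 highest were Hspa1b, Cdhr3, Bcl3, Cdsn, H2afj and Rarg. Hspa1b was at 15.7 ± 3.497 CPM with SE+IFN-γ and at 2.95 ± 0.893 CPM with LE+IFN-γ, from 1.605 ± 0.557 and 1.71 ± 0.621 CPM (difference of log2 responses 2.50, standard error 0.411, adjusted p = 0.00426). Its neighbour Hspa1a is nearly identical, so that the level of each is uncertain. Several of these calls rested on single libraries. Of the 12 libraries of the contrast, leaving out 1 ended the call of Cdsn for 10 of them, of Ddias for 9, of Rarg for 8, of Trim59 for 6, of Bcl3 for 3 and of Cdhr3 for 2, with adjusted p up to 0.156, and the difference of Ccl5 was called without SE replicate 3 (1.08).

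Against the response with PE 596 genes (4.55%) were called, 373 (2.85%) higher with SE and 223 (1.7%) lower. Pgf, Irf4, Ptpn14, Ccng2, Bzrap1 and Mustn1 had the highest differences, and Bglap2, Ranbp3l, Pi16, Avil, Chst1 and Cdhr3 the lowest. Pgf was at 1.84 ± 0.2504 CPM with PE+IFN-γ and at 18.2 ± 2.499 CPM with SE+IFN-γ (difference of log2 responses 3.64, standard error 0.573, adjusted p = 0.000148). Ccng2, which codes a cyclin of resting cells, fell from 10.4 ± 3.54 to 1.99 ± 0.382 CPM with PE and went from 8.16 ± 2.94 to 6.75 ± 0.7501 CPM with SE (difference of log2 responses 2.12, standard error 0.395, adjusted p = 0.000788). Pi16, a secreted protein gene, stood at 75.1 ± 7.25 CPM with PE+IFN-γ and at 25.6 ± 3.46 CPM with SE+IFN-γ (difference of log2 responses -1.74, standard error 0.209, adjusted p = 4.52e-06). Ccl5 (at chr11:83525778-83530518) reached 14.7 ± 0.295 CPM with PE+IFN-γ (difference of log2 responses 1.94, standard error 0.252, adjusted p = 1.5e-05) and 31.5 ± 0.954 CPM with LE+IFN-γ, where its difference from SE was not called (difference of log2 responses 0.81, adjusted p = 0.0811). Of the ER chaperones 8 and of the cholesterol synthesis genes 4 had a lower response with SE than with PE, and 5 chemokine genes a higher one.

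**Figure D5:**
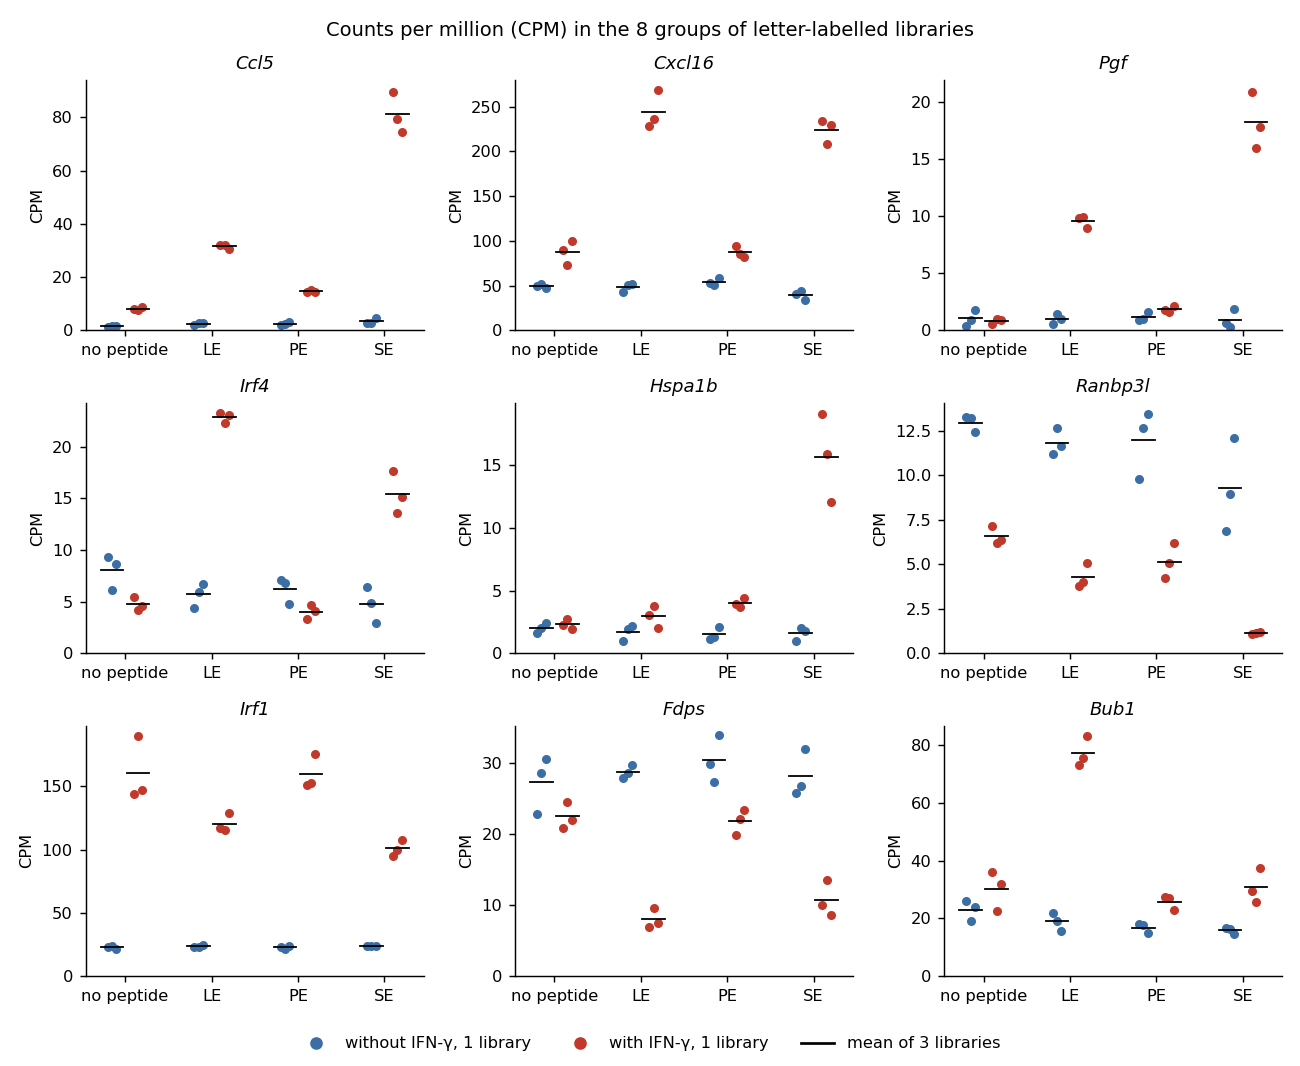
Levels in CPM (linear axes from 0) of 9 genes in the 24 letter-labelled libraries, with blue points for libraries without IFN-γ, red points for libraries with it and black bars for the mean of 3. The red points of Ccl5 and Hspa1b are highest with SE and those of Irf4 and Bub1 with LE, while the red points of Ranbp3l are lowest with SE.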

How the data were processed

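RNA was sequenced from RAW264.7 cells with a stranded mRNA kit and single-end reads. The authors assigned uniquely aligned reads to genes of the GENCODE M12 annotation (GRCm38.p5) with featureCounts and deposited raw counts per gene in 1 table of 49568 genes and 48 libraries, to which they applied DESeq2 1.16.1 in R 3.4.1. The aligner is not given in the sources used here. The table held 26 names turned into dates.

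Libraries were grouped by their labels. The 6 SE and SE+IFN-γ libraries with letter names held 17.1 to 25.5 M counts, and no pair differed by less than sampling noise (lowest chi-square per degree of freedom 3.89). SE+IFN-γ was compared with SE by the quasi-likelihood test of edgeR 4.0.16 in R 4.3.3 (TMM factors, filterByExpr) in a fit of the 18 letter-labelled libraries with a peptide, and the differences between responses came from a fit of all 24. P-values were adjusted by Benjamini and Hochberg over all genes tested. Each standard error was worked back from the test, as the size of the log2 value over the square root of its F statistic. It is not the error of the fitted coefficient, and for genes with few counts in a group it can lie under the counting error. For this reason it is left out for Gbp2, Gbp5 and C1qb. A call needed an adjusted p under 0.05 and a fold change over 1.5. CPM is a count scaled by the total of its library. Where all SE libraries had 0 counts, folds were taken against 3 counts over the group, and with 1 to 3 counts an exact 95% interval was given. Of the names, 96.1% matched 1 gene of the GRCm38 annotation, which gave positions, transcript lengths and GC content. Promoters came from RefSeq (GRCm38.p6).

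The gene lists and tests were chosen with earlier results of these data known. Named were list members and, per direction, the 12 most extreme changes of SE+IFN-γ against SE and the 6 of each difference. These were called genes that reached a mean of 10 CPM in the highest group and were no predicted gene models. For the changes the SE and SE+IFN-γ libraries did not overlap. For a difference it was enough that the libraries of either response did not overlap. Some genes, 1 of the 12 lowest among them, are not reported here. Alternatives were other size factors, no filter, DESeq2 1.42.0, a replicate block, other sets of libraries, other fold minimums, protein-coding genes alone, a trend on length and GC content, and each library left out.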

Additional observations from a re-analysis of the deposited data

Results flagged for a closer look

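The following genes differed in their response to IFN-γ between SE and another setting by the test of the difference itself (edgeR's quasi-likelihood test over all genes), and each value is the log2 response with SE minus the log2 response in the other setting.

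Without peptide as the other setting, the response with SE was higher for Pgf by 4.55, Ptpn14 by 3.18, Hspa1b by 3.05, Irf4 by 2.40, Tnfrsf9 by 2.29, Dmpk by 2.27, Ccl5 by 2.04 and Cxcl16 by 1.65. The difference was -2.38 for Bglap2, -2.08 for Ranbp3l, -1.88 for H2-Ab1, -1.82 for Chst1, -1.68 for Avil, -1.61 for Pi16, -1.17 for Fdps, -0.83 for Hsp90b1 and -0.80 for Irf1. The value of H2-Ab1 rests largely on low levels without IFN-γ. Ptpn14 and Irf4 moved in opposite directions, up with SE and down without peptide.

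With LE as the other setting, the response with SE was higher for Hspa1b by 2.50, Cdhr3 by 1.31, Bcl3 by 0.96, Cdsn by 0.82, H2afj by 0.81 and Rarg by 0.80. The difference was -1.55 for Ranbp3l, -1.41 for Prr11, -1.28 for Aspm, -1.27 for Ddias, -1.26 for Trim59, -1.22 for Plau and -1.07 for Bub1.

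With PE as the other setting, the response with SE was higher for Pgf by 3.64, Irf4 by 2.34, Ptpn14 by 2.26, Ccng2 by 2.12, Bzrap1 by 2.05, Mustn1 by 2.03 and Ccl5 by 1.94. The difference was -2.11 for Bglap2, -1.77 for Ranbp3l, -1.74 for Pi16, -1.50 for Avil, -1.50 for Chst1 and -1.47 for Cdhr3.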

How the results depend on the processing

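The 3410 genes called between SE+IFN-γ and SE became 3351 with DESeq2, 3399 with its size factors in edgeR and 2929 with the trend on length and GC content subtracted. They were 3223 to 3468 with 1 of the 6 libraries left out. The count was 1903 when the test was run against a fold change of 1.5, 1634 with a minimum of 2-fold, 21 with the HLA-labelled libraries alone and 0 with both sets together, where the labels of the sets go against each other.

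Of the differences, 1043 genes against no peptide became 103 by the test against 1.5-fold, 312 with 2-fold and 0 with the HLA libraries alone and with both sets, and 795 to 1224 with 1 library left out. The 116 genes against LE became 235 without the filter on low counts, 192 with DESeq2, 215 with only the 4 groups of the contrast, 0 by the test against 1.5-fold, 25 with 2-fold, 2481 with the HLA libraries alone and 0 with both sets, and 35 to 140 with 1 library left out. The 596 genes against PE became 70 by the test against 1.5-fold, 222 with 2-fold, 1909 with the HLA libraries alone and 0 with both sets, and 427 to 664 with 1 library left out. The counts from the HLA libraries alone cannot be read as differences of responses to IFN-γ, since those libraries went against their labels. Their mean log2(CPM + 0.1) of the 16 check genes was 6.49 to 6.73 where the label was LE or PE. It was 5.86 to 6.15 where the label was LE+IFN-γ or PE+IFN-γ. In the letter-labelled libraries unadjusted p was under 0.05 for 4377, 2328 and 3211 genes against no peptide, LE and PE.

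With both sets together the difference from LE became -0.82 for Cdhr3, -0.18 for Cdsn, 0.66 for Ranbp3l, 0.36 for Aspm, 0.76 for Ddias, 0.22 for Trim59, 1.04 for Plau and 0.50 for Bub1, and that of Ranbp3l from PE 0.21. The cause was not tested. Of the 138 fold changes named between SE+IFN-γ and SE, of which some were not called, all kept their side of the threshold with DESeq2, its size factors, no filter, other groups in the fit and the replicate block, and Gsdmd and Psmb6, near 0 and not called, changed sign in some. Of 44 differences named, 43 did with DESeq2 and without the filter, and that of Ccl5 from LE was called in both.

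The replicate numbers were entered as a block in an alternative. Same-numbered SE and SE+IFN-γ libraries did not deviate together (r of -0.0527, -0.00378 and -0.0193 over 13096 genes), so the numbers were not taken as pairs. With the block 3432 genes were called, and the differences from no peptide, LE and PE gave 1130, 162 and 621.

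The filter on low counts left out genes of few counts. Without it 26249 genes were tested and 3603 called.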

Other observations

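Of the 15 genes called with opposite signs with SE and without peptide, several beyond those described were chosen here after their values were seen. Hipk2, a nuclear kinase gene, had a log2 response of 0.79 with SE and -0.64 without peptide. Sik2, a salt-inducible kinase gene, had 0.70 and -0.66, and Klhl24 had 0.73 and -0.92.

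Some genes of the lists were left out by the filter on low counts. Il10, which codes a cytokine that restrains macrophages, had 0, 1 and 0 counts in the SE libraries and 12, 9 and 7 in the SE+IFN-γ libraries. Il12b had no count in any of the 6.

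In the libraries with HLA names Gbp2 stood at 1.52, 0.962 and 2.24 CPM where the label was SE and at 0.968, 1.13 and 1.02 CPM where it was SE+IFN-γ. Irf1 stood at 17.7, 17.8 and 17.1 CPM and at 17.4, 18.7 and 16.8 CPM.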
